A study of Mus musculus with 5 samples.

Results

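The vacuolar proton pump (V-ATPase) is built from a cytosolic V1 sector, which splits ATP, and a membrane sector called V0, which carries the protons. The 10 genes described here encode the V0 sector and its accessory protein, and were chosen by name: the a subunit genes Atp6v0a1, Atp6v0a2 and Tcirg1 (the a3 isoform), the ring genes Atp6v0c and Atp6v0b, the d subunit genes Atp6v0d1 and Atp6v0d2, the small e subunit genes Atp6v0e and Atp6v0e2, and Atp6ap1. All 10 were found among the 21990 genes of the deposited table. Their messages were measured in the mouse line RAW264.7, which is of the monocyte/macrophage lineage and can form osteoclast-like cells, in a study of CD137, macrophage migration and osteoclast differentiation. Renilla luciferase was expressed in all cells, alone in the control and with mouse Cd137 in the CD137 group; Cd137 is a TNF receptor family member encoded by Tnfrsf9. The series has 2 control and 3 CD137 samples. The libraries analysed here are control replicate 2 and CD137 replicates 2 and 3, made with oligo-dT beads; replicate 1 of either group was not analysed here. No differentiation factor is named in the labels, and the labels do not say how the CD137 cells were made or whether they are clonal.

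V-ATPase acidifies lysosomes, endosomes and phagosomes in every macrophage. In an osteoclast the same pump is moved to the ruffled border, where it acidifies the bone surface. The a subunit forms the proton half-channels and decides where the pump is sent: a1 is best known from neurons and synaptic vesicles, a2 from endosomes and the Golgi, and a3 from lysosomes and the ruffled border. The ring of c and c″ proteolipids carries protons on a conserved acidic residue in the membrane. The d subunit couples the ring to the central stalk, and its d2 isoform is known as an osteoclast gene needed for cell fusion. Subunit e is a small membrane protein, and Atp6ap1 encodes Ac45, which takes part in pump assembly and targeting.

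Of the 10 V0 genes, 7 rose in CD137 cells, 0 fell and 3 did not pass the test. Atp6v0d2 and Atp6v0a1 rose 2.52-fold and 2.05-fold. The ring genes Atp6v0c and Atp6v0b, with Atp6v0d1, rose 1.34-fold, 1.27-fold and 1.25-fold, and Atp6ap1 and Atp6v0e2 rose 1.16-fold and 1.14-fold. Tcirg1, Atp6v0a2 and Atp6v0e did not pass, with CD137 means at 1.08, 1.02 and 0.959 of the control. "Rose" and "fell" are used for a limma adjusted p under 0.05 in a fit of the 10720 expressed genes, those with 1 FPKM or more in at least 1 library. FPKM is the number of fragments per kilobase of transcript, scaled to a fixed library total. In that fit 42.6 percent of expressed genes passed, 24.4 percent as higher and 18.2 percent as lower. All 10 V0 genes were expressed in every library, so none entered only through the CD137 libraries.

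These calls rest on 1 control library, whose values carry no replicate error, and only the 2 CD137 libraries give a spread. In a limma fit of all 16003 genes with a value, 0 genes (0 percent) passed an adjusted p of 0.05. There the smallest adjusted p was 0.0802, 5281 genes (33 percent) had an unadjusted p under 0.05, and 8 of the 10 V0 genes were among them. Whether the CD137 libraries are separate cultures is not stated in the labels. The p-values set the difference between the groups against the spread of the 2 CD137 libraries, shared across genes by limma. That spread may therefore reflect technical variation only, and it holds no variation between control cultures.

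The label check and the markers are given once. Tnfrsf9 was at 5.06 FPKM in the control and at 364 and 370 FPKM in CD137 replicates 2 and 3. Depth was about 18 sequenced units per FPKM and kilobase of transcript in the control, and 0.983 and 0.988 of that in the CD137 libraries; the units are called reads here and may be fragments. Of 8 macrophage markers 7 were expressed, and Mertk was at or near 0; 4 rose and 3 fell, with a median log2 fold change of 0.39. Their sum was 2808 FPKM in the control and 1691 and 1734 FPKM in the CD137 libraries, of which Lyz2, the lysozyme gene, made up 1693, 646 and 669 FPKM. Of 10 osteoclast markers 5 were expressed. Ctsk, the bone-degrading cathepsin, was not among these 5, at 0.07 FPKM in the control and 0.80 and 0.77 FPKM in CD137 replicates 2 and 3. Also below 1 FPKM, Itgb3 and Oscar were higher and Ocstamp was lower in both CD137 libraries, and Calcr had no value. Of the 5 expressed markers, 3 rose (Mmp9, a matrix protease, from 0.65 to 4.79 and 5.14 FPKM, Acp5 and Dcstamp), 1 fell (Nfatc1, the osteoclast master regulator, from 28.4 to 18.9 and 19.4 FPKM) and 1 did not pass. The whole list summed to 64.9, 64.0 and 63.5 FPKM, and these osteoclast markers were named after their values were seen. The part of these shifts in the V0 values was not tested. No T cell, B cell or fibroblast marker reached 1 FPKM. The fibroblast markers summed to 0.15 FPKM in the control, 0.75 in CD137 replicate 2 and 0.19 in CD137 replicate 3. The epithelial markers Epcam, Krt8 and Krt18 summed to 0.60 FPKM in the control, 5.63 in CD137 replicate 2 and 1.11 in CD137 replicate 3. CD137 replicate 2 stands apart in the fibroblast and epithelial markers, at low levels. The summed V0 level was 1.24 times the control in replicate 2 and 1.26 times in replicate 3. In bulk RNA a change in the share of cells and a change of RNA per cell cannot be told apart.

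The start regions of 8 of the 10 genes have an entry in RefSeq's promoter set for GRCm38.p6, the assembly of mm10; Atp6v0a2 and Atp6v0d2 have none. In the 250 bases before the start, a CACGTG site, the core of the element that MiT transcription factors bind at lysosomal genes, was found in 1 of the 12 windows of these 8 genes. That window is Atp6v0b's, with 2 matches close to the start. CACGTG reads the same on both strands and was present in 6.02 percent of 32851 RefSeq windows of that length. The pattern TGANTCA, with any base at its centre, is looser than the AP-1 consensus, which has C or G there. It was searched on both strands, was present in 6.75 percent of windows, and was found in 1 window, that of Atp6v0a1. That match, TGATTCA, has T at its centre. No window of these genes held the NF-kB motif, present in 7.25 percent of RefSeq windows. The window of Atp6v0a1 belongs to a start inside the gene, downstream of the gene start in the deposited table. It is the only window of Atp6v0a1, so the bases before that gene start were not searched. Windows 1 and 2 overlap for Tcirg1 and for Atp6v0c, and window 3 of Atp6v0c lies wholly in exon sequence of that gene. The 2 windows with a match are shown 5′ to 3′ on the gene's strand, with the match in capitals. Atp6v0b is on the minus strand at chr4:117887330-117887579 and Atp6v0a1 on the plus strand at chr11:101010148-101010397. A match is a description of letters and was not tested for binding.
Atp6v0b: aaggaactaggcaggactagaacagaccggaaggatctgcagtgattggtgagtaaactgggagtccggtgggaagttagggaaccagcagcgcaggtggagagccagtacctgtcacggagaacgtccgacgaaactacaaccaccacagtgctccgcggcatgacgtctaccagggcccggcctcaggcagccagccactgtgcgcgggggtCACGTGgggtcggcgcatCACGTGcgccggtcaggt
Atp6v0a1: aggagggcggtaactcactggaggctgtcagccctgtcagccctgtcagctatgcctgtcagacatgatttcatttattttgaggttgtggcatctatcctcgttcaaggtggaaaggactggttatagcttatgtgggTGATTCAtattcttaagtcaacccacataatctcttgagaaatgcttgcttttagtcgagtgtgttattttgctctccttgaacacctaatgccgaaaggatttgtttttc

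**Figure D1:**
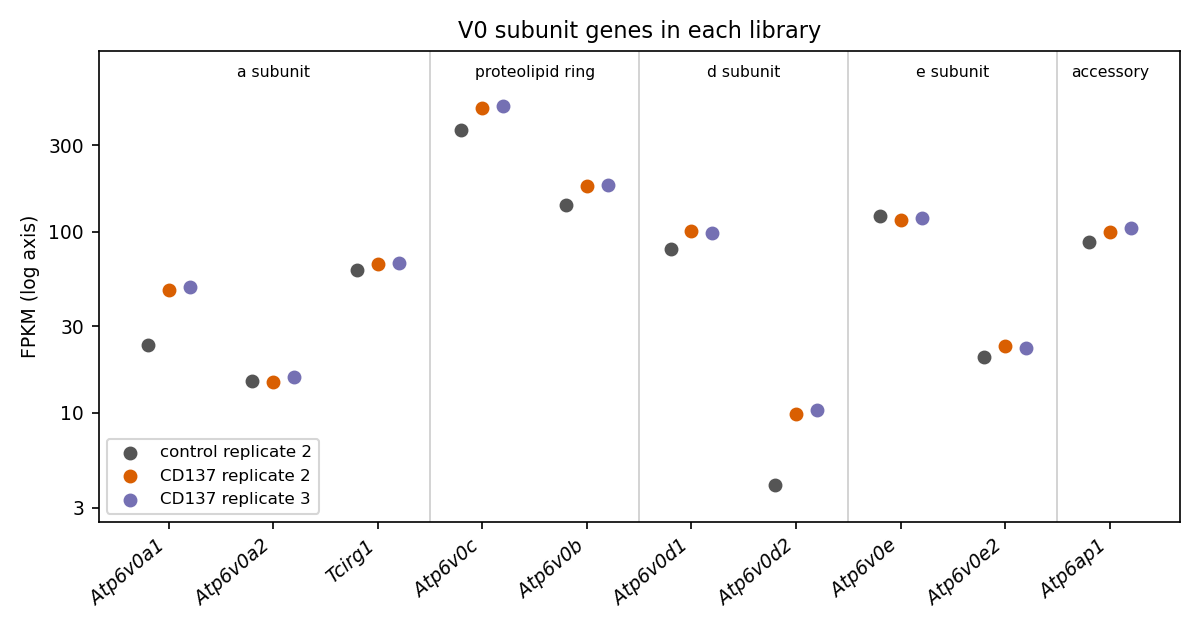
FPKM on a log axis (vertical) of the 10 V0 genes (horizontal, grouped by subunit); each point is 1 library, grey for control replicate 2 and orange and purple for CD137 replicates 2 and 3. Atp6v0c is the highest and Atp6v0d2 the lowest in each library, and the CD137 points of Atp6v0a1 and Atp6v0d2 lie farthest above their control.

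Because FPKM is per length, the levels of the subunits can be set side by side. In the control the order was Atp6v0c at 367 FPKM, Atp6v0b at 141, Atp6v0e at 123, Atp6ap1 at 88.1, Atp6v0d1 at 79.9, Tcirg1 at 61.5, Atp6v0a1 at 23.6, Atp6v0e2 at 20.4, Atp6v0a2 at 14.99 and Atp6v0d2 at 4.00. The single control library gives no spread for this order. The proteolipid gene Atp6v0c was higher than 98.2 percent of expressed genes and Atp6v0d2 higher than 16.6 percent. Atp6v0a1 stood a little above its neighbour Atp6v0e2 in the control, at 23.6 against 20.4 FPKM. In CD137 cells it stood farther above it, at 48.4 ± 1.23 against 23.2 ± 0.40 FPKM (SD, n = 2). Atp6ap1 and Atp6v0d1 lay next to each other in CD137 cells, at 102 ± 3.04 and 99.8 ± 1.82 FPKM (SD, n = 2), and their libraries overlapped. The 2 CD137 libraries differed from each other by a factor of at most 1.07 in every V0 gene. In the authors' deposited table, whose Poisson test compares the reads of 2 libraries, 0 of the 10 genes had an adjusted value under 0.05 between the CD137 libraries. The share of all expressed genes in this pair was not computed, so whether the count is particular to the V0 genes cannot be said.

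Of the 3 a subunit genes, Atp6v0a1 rose, and Tcirg1 and Atp6v0a2 did not pass the test. Atp6v0a1 (gene ID 11975, chromosome 11, start 101009449 and end 101063719 in mm10, plus strand) was at 23.6 FPKM in the control, 47.6 in CD137 replicate 2 and 49.3 in CD137 replicate 3. Both CD137 libraries lay far above the control and close to each other. The log2 fold change on the log2(FPKM + 1) scale, used for all fold changes from the fit, was 1.005 ± 0.05 (SE, limma adjusted p = 0.000808), and 98.9 percent of expressed genes had a lower one. The reads behind these values, solved from the authors' p-values, were 1702, 3358 and 3508. Per unit of depth this is 2.01-fold (95% exact binomial interval 1.89 to 2.13) in replicate 2 and 2.09-fold (1.97 to 2.21) in replicate 3; here and below such intervals cover counting error only.

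Tcirg1, the a3 isoform whose loss causes osteopetrosis (gene ID 27060, chromosome 19, start 3896050 and end 3907133, minus strand), was at 61.5 FPKM in the control and at 66.3 and 67.1 FPKM in CD137 replicates 2 and 3. The CD137 libraries were both above the control, by a small margin. The log2 fold change was 0.11 ± 0.04 (SE, limma adjusted p = 0.0781) and did not pass. In the authors' deposited table Tcirg1 had adjusted values of 0.00882 and 0.00169 in the pairs of the control with CD137 replicates 2 and 3. Its reads could not be solved, so no counting interval is given.

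Atp6v0a2 (gene ID 21871, chromosome 5, start 124629052 and end 124724455, plus strand) had 14.99 FPKM as its control value, against 14.8 and 15.7 FPKM in CD137 replicates 2 and 3. It is the V0 gene whose CD137 libraries lie on either side of the control. The log2 fold change was 0.02 ± 0.06 (SE, limma adjusted p = 0.807), and turned to -0.01 when each library was centred on the median ratio of expressed genes. From 1448 control reads the counting intervals of the fold ran from 0.914 to 1.06 in replicate 2 and from 0.976 to 1.13 in replicate 3. In GENCODE M21 663 of its 6726 exon bases overlap an antisense RNA gene, and strandedness is not given in the sources used here, so reads of the pair cannot be told apart.

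In the make-up of the a subunit messages, Atp6v0a1 was 23.6 percent of the summed a subunit FPKM in the control and 37.0 and 37.3 percent in CD137 replicates 2 and 3. Tcirg1 was 61.4 percent in the control and 51.5 and 50.8 percent in the CD137 libraries, and remained the most abundant a isoform in each library. Atp6v0a2 was at 14.97, 11.5 and 11.9 percent, and the kidney isoform gene Atp6v0a4 was at 0 in the control and CD137 replicate 3 and at 0.02 FPKM in CD137 replicate 2. The level of Tcirg1 was 2.60 times that of Atp6v0a1 in the control and 1.39 and 1.36 times in the CD137 libraries. The summed a subunit FPKM was 100.2 in the control, 128.6 in CD137 replicate 2 and 132 in CD137 replicate 3. These shares were not tested, since there is 1 control library.

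**Figure D2:**
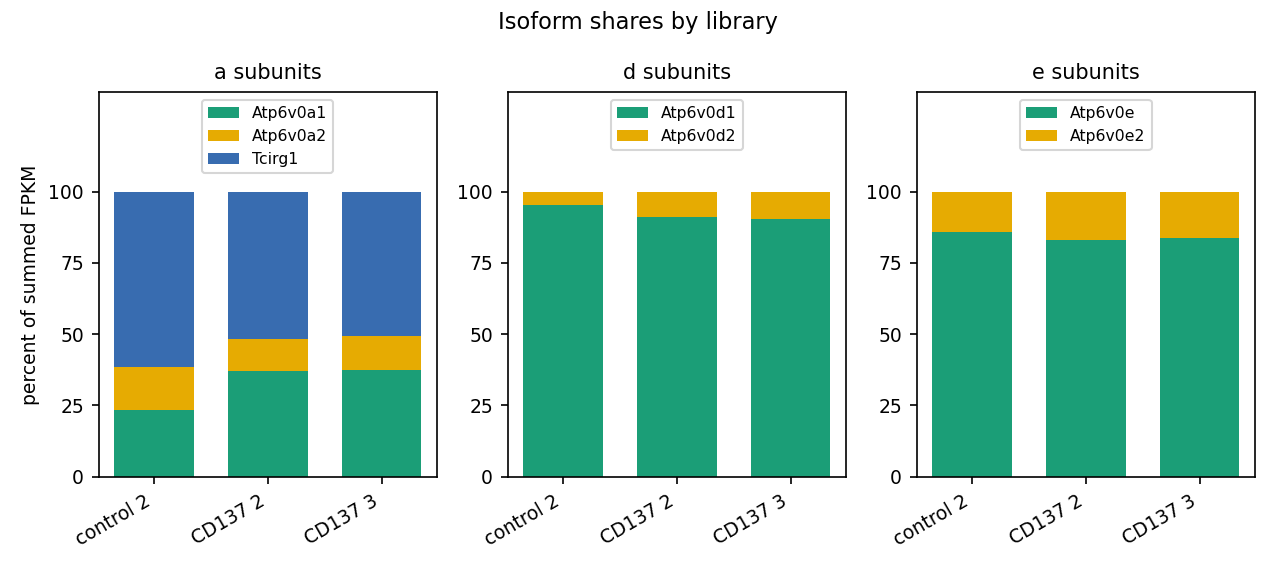
Percent of the summed FPKM (vertical) taken by each isoform of the a, d and e subunits in control replicate 2 and CD137 replicates 2 and 3 (bars, 1 per library). Atp6v0a1 grows from 23.6 percent in the control to 37.0 and 37.3 percent in the CD137 libraries, and Atp6v0d2 from 4.77 to 8.87 and 9.48 percent.

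The ring genes rose by similar amounts. Atp6v0c, which encodes the c proteolipid that makes up most of the ring (gene ID 11984, chromosome 17, start 24163866 and end 24169429, minus strand), was at 367 FPKM in the control and at 484 and 496 FPKM in CD137 replicates 2 and 3. Both CD137 libraries lay well above the control, and the step between them was much smaller. On the log2 scale it rose by 0.42 ± 0.03 (SE, limma adjusted p = 0.00172). It was the most deeply read V0 gene, with 7429, 9638 and 9924 reads, and the counting intervals of its fold were 1.28 to 1.36 and 1.31 to 1.39. The processed pseudogenes Atp6v0c-ps1 and Atp6v0c-ps2 match it at 97.2 and 99.8 percent over 465 bases. Neither name is in the deposited table, so it cannot be seen whether reads of these copies are within the Atp6v0c values.

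Atp6v0b encodes the c″ proteolipid (gene ID 114143, chromosome 4, start 117884330 and end 117887329, minus strand), and its start region with the 2 CACGTG matches is printed above. It was at 141 FPKM in the control, 178 in CD137 replicate 2 and 180.3 in CD137 replicate 3, so the groups did not overlap. Its change was 0.34 ± 0.04 on the log2 scale (SE, limma adjusted p = 0.00268). The ratio of Atp6v0c to Atp6v0b was 2.60 in the control and 2.72 and 2.75 in the CD137 libraries. In GENCODE M21 243 of the 2051 exon bases of Atp6v0b overlap an antisense RNA gene.

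Both d subunit genes rose, by different factors. Atp6v0d1, the d isoform found in most tissues (gene ID 11972, chromosome 8, start 105524470 and end 105566040, minus strand), was at 79.9 FPKM in the control and at 101 and 98.5 FPKM in CD137 replicates 2 and 3. It rose by 0.32 ± 0.04 on the log2 scale (SE, limma adjusted p = 0.00457), and the counting intervals of its fold were 1.20 to 1.34 and 1.17 to 1.30. Atp6v0d2 (gene ID 242341, chromosome 4, start 19876838 and end 19922566, minus strand) was at 4.00 FPKM in the control and at 9.84 and 10.3 FPKM in CD137 replicates 2 and 3. The d2 isoform thus stayed far below d1 in every library, although its rise was the largest among the V0 genes. Its log2 fold change was 1.15 ± 0.07 (SE, limma adjusted p = 0.0011), and 99.4 percent of expressed genes had a lower one.

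The reads of Atp6v0d2, 183 in the control and 442 and 466 in the CD137 libraries, are the fewest of the 9 V0 genes solved. The counting intervals of its fold, 2.06 to 2.94 in replicate 2 and 2.17 to 3.08 in replicate 3, are correspondingly the widest. They do not overlap those of Atp6v0d1. Atp6v0d1 was 19.98 times as abundant as Atp6v0d2 in the control and 10.3 and 9.55 times in the CD137 libraries. As a share of the summed d subunit FPKM, Atp6v0d2 was at 4.77 percent in the control and at 8.87 and 9.48 percent in the CD137 libraries.

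The genes whose values across the 3 libraries were most like those of Atp6v0d2, by the Euclidean distance of the log2(FPKM + 1) differences from the control among 9882 other genes at 1 FPKM or more in each library, were Osm, Btg3 and Slc9a9. Osm, the cytokine oncostatin M, was at 4.03, 9.82 and 10.4 FPKM in the control and CD137 replicates 2 and 3, a distance of 0.0115. Btg3, an antiproliferative protein, was at 10.8, 24.3 and 25 FPKM (distance 0.0372), and Slc9a9, an endosomal sodium/proton exchanger, at 5.75, 14.1 and 14.4 FPKM (distance 0.0428). With 3 libraries of 2 groups such likeness says only that the folds are close.

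Of the e subunit genes, Atp6v0e did not pass and Atp6v0e2 rose. Atp6v0e (gene ID 11974, chromosome 17, start 26676396 and end 26699647, plus strand) was at 123 FPKM in the control and at 116 and 119 FPKM in CD137 replicates 2 and 3. It is the V0 gene with both CD137 libraries below the control, as 40.2 percent of expressed genes had; its log2 fold change of -0.06 ± 0.04 did not pass (SE, limma adjusted p = 0.26). The counting intervals of its fold, 0.884 to 1.02 and 0.906 to 1.04, both include 1. Atp6v0e2 (gene ID 76252, chromosome 6, start 48537569 and end 48541801, plus strand) was at 20.4 FPKM in the control and at 23.5 and 23.0 FPKM in the CD137 libraries.

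Atp6v0e2 passed narrowly, with a log2 fold change of 0.18 ± 0.05 (SE, limma adjusted p = 0.0441). It lost the call when the libraries were centred on the median ratio (adjusted p = 0.0648) and when limma was run without the variance trend (adjusted p = 0.0762); over its alternatives the adjusted p ran from 0.0328 to 0.116. Its share of the summed e subunit FPKM was 14.2 percent in the control and 16.8 and 16.2 percent in the CD137 libraries. The summed e subunit FPKM was 143.2 in the control, 139.9 in CD137 replicate 2 and 142.1 in CD137 replicate 3.

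Atp6ap1, the Ac45 gene (gene ID 54411, chromosome X, start 74294907 and end 74304721, plus strand), was at 88.1 FPKM in the control and at 100.2 and 104.5 FPKM in CD137 replicates 2 and 3. The CD137 libraries were both above the control. Atp6ap1 rose by 0.21 ± 0.04 on the log2 scale (SE, limma adjusted p = 0.0173), with counting intervals of 1.09 to 1.19 and 1.13 to 1.24 from 3447, 3853 and 4042 reads. Without the variance trend in limma it did not pass (adjusted p = 0.0642), and over its alternatives the adjusted p ran from 0.0107 to 0.127.

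**Figure D3:**
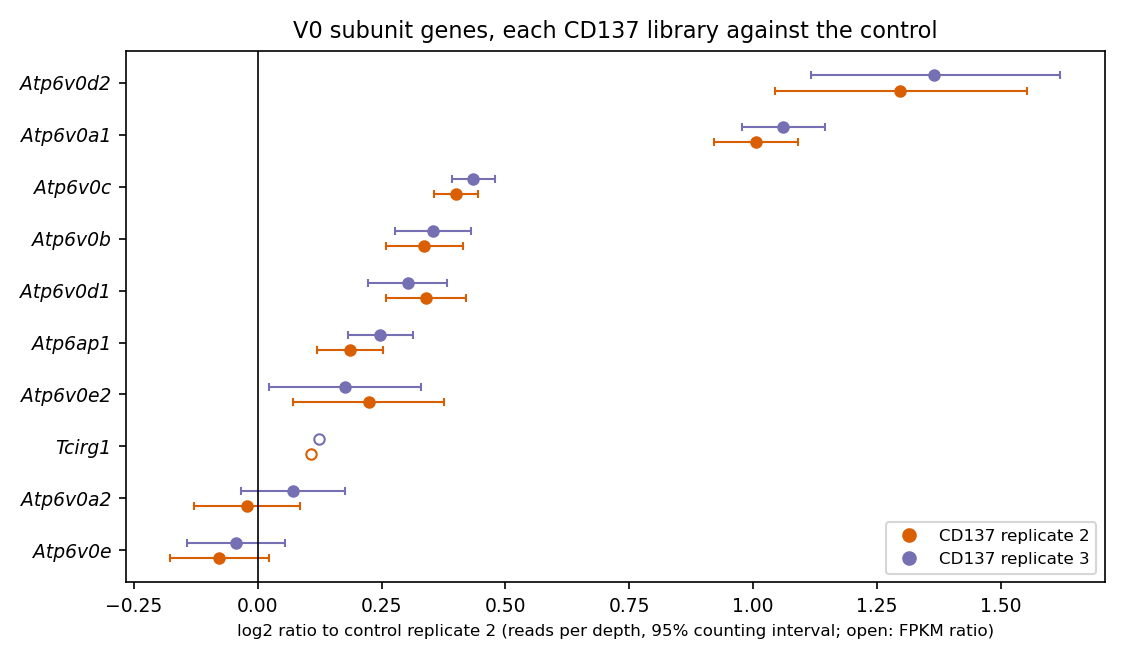
Log2 ratio to control replicate 2 (horizontal) of the V0 genes (vertical) in CD137 replicates 2 (orange) and 3 (purple), from reads per depth with 95% counting intervals; open points for Tcirg1 are FPKM ratios. Atp6v0d2 and Atp6v0a1 lie farthest right, near 1.30 and 1.01 in replicate 2, and the intervals of Atp6v0a2 and Atp6v0e include 0.

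Across the sector, the V0 genes had both CD137 libraries above the control for 8 of 10 genes, where 49 percent of expressed genes did so. In CD137 replicate 3 alone 9 of 10 V0 genes were above the control, against 54.2 percent of expressed genes, and in replicate 2 alone 8 of 10, against 54.4 percent. The median log2 fold change of the V0 genes was 0.27, and that of all expressed genes 0.03. In the table deposited by the authors, 7 of the 10 genes had an adjusted value under 0.05 in both pairs with the control, each with both CD137 libraries higher, as did 26 percent of expressed genes. The 7 genes by the authors' deposited table include Tcirg1 and not Atp6v0e2, the reverse of the limma calls. Summed over the sector, FPKM was 923.6 in the control, 1142 in CD137 replicate 2 and 1164 in CD137 replicate 3.

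The V1 sector, the ATP-splitting part to which V0 docks, had 9 expressed genes of 13 listed, of which 6 rose, 0 fell and 3 did not pass, with a median log2 fold change of 0.26. Beside this count and those of the lists below, 24.4 percent of all expressed genes rose and 18.2 percent fell. Atp6v1g1, a peripheral stalk subunit, rose from 136 FPKM to a CD137 mean of 190.4 ± 2.25 FPKM (SD, n = 2). Its log2 fold change of 0.48 was the largest among the expressed V1 genes. Atp6v1d, of the central stalk, went from 39.7 to 55.0 ± 1.01 FPKM, Atp6v1e1, of the peripheral stalk, from 38.6 to 51.6 ± 0.46 FPKM, and Atp6v1f, the V1 gene with the highest control level, from 141 to 182 ± 8.04 FPKM. None of the expressed V1 genes changed as much as Atp6v0a1 and Atp6v0d2 did; the difference itself was not tested. Atp6v1h, the regulatory H subunit, did not pass, with 54.2 FPKM in the control against 54.6 ± 0.91 FPKM.

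Of 16 accessory and assembly genes 14 were expressed, of which 4 rose, 1 fell and 9 did not pass (median log2 fold change 0.12). Atp6ap2, the (pro)renin receptor that joins the pump beside Ac45, rose from 74.4 to 91.9 ± 1.46 FPKM. Dmxl2, a rabconnectin subunit that helps V1 assemble onto V0, rose from 4.64 to 6.67 ± 0.15 FPKM. The other genes past the threshold, named here after their values were seen, were Tmem9b and the assembly factor gene Tmem199, which rose, and Ccdc115, which works with Tmem199 and fell from 59.5 to 48.8 ± 2.28 FPKM.

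Partner genes in acid transport went both ways, with 3 of 8 expressed genes higher and 2 lower (median 0.15). Snx10, a sorting nexin required for osteoclast acid secretion, rose from 23.7 to 30.8 ± 1.40 FPKM. Car2, the carbonic anhydrase that supplies protons in osteoclasts, fell from 417 to 329 ± 4.90 FPKM. Named after their values were seen, the lysosomal chloride/proton exchanger gene Clcn7 and its partner Ostm1 rose, and the lysosome positioning gene Plekhm1 fell. Among the Ragulator and Rag genes, which sense nutrients together with the pump, 3 of 9 expressed genes rose and 0 fell (median 0.09): Rragc from 51.3 to 64.1 ± 1.89 FPKM, and, named after their values were seen, Slc38a9 and Lamtor5. Lamtor2, the highest in the control at 141 FPKM, did not pass, with a CD137 mean of 149 ± 0.98 FPKM.

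The MiT transcription factors, which drive lysosomal and V-ATPase genes in many cells, had lower values in the CD137 libraries for each of the 3 expressed members, of which 2 fell, 0 rose and 1 did not pass. Mitf fell from 15.1 to 12.0 ± 0.25 FPKM and Tfeb, named after its values were seen, from 13.5 to 11.2 ± 0.02 FPKM (SD, n = 2). Tfe3, the highest of them, did not pass, with 34.9 FPKM in the control against 30.8 ± 1.07 FPKM (limma adjusted p = 0.0505). Their median log2 fold change was -0.25.

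**Figure D4:**
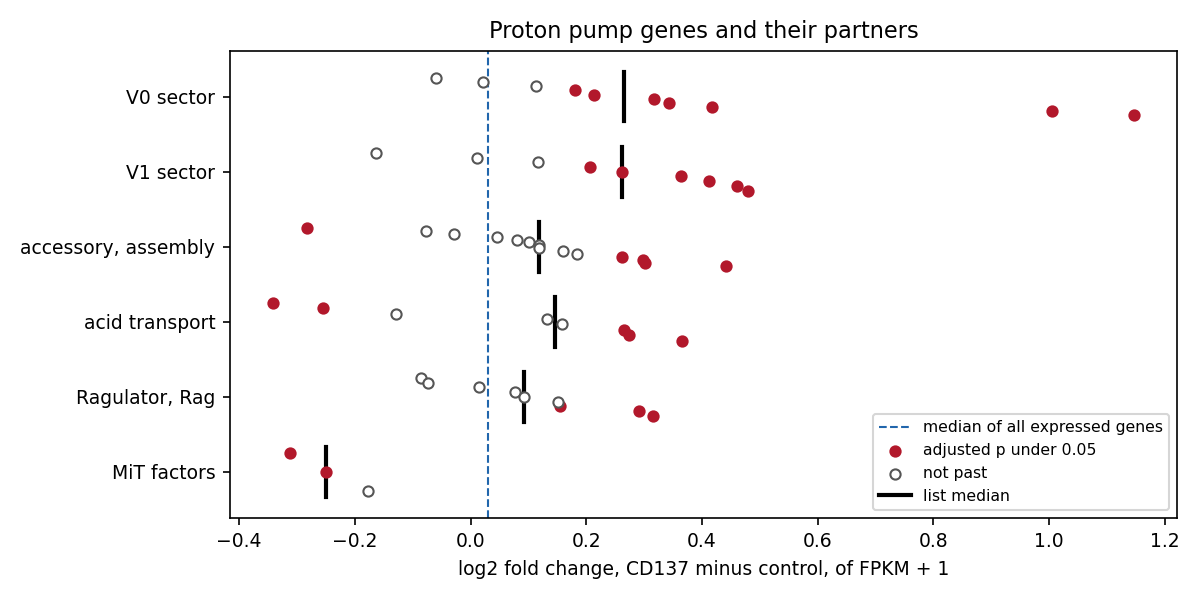
Log2 fold change of FPKM + 1, CD137 minus control (horizontal), of each expressed gene in the V0 sector and 5 related lists (vertical); filled points passed a limma adjusted p of 0.05, black bars are list medians and the dashed line the median of all expressed genes. The V0 and V1 medians are 0.27 and 0.26, and the MiT factors lie at -0.25 with no gene above 0.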

How the data were processed

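The deposited table gives FPKM for each gene in each library to 2 decimals, per the file headers and values. The submitters' processing notes list mm10, HISAT2, Bowtie2 and RSEM, with neither version nor role, and whether reads were counted by strand is not given in the sources used here. Log2 ratios and p-values by the authors compare 2 libraries at a time by a Poisson test, per the file headers. The authors' adjusted values beside them exceed 1 for some genes and were treated as a score. Groups and replicate numbers came from the sample titles. One broken line was left out, and 16003 of 21990 genes had a value.

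Genes were tested with limma 3.58.1 in R 4.3.3, by lmFit and eBayes with trend on log2(FPKM + 1) values, with Benjamini-Hochberg adjustment over all genes in the fit. With 1 control and 2 CD137 libraries, 1 residual degree of freedom remains; an exact permutation test of 1 against 2 libraries cannot go below p = 0.333. Fold changes on this scale understate low genes, and "fold" without log2 is the CD137 mean FPKM over the control. FPKM is relative to the library total.

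Whole reads were solved from the authors' p-values, each matched as the doubled smaller tail of a Poisson law conditional on the other library, jointly for 3 pairs of libraries and with the FPKM ratios, within 3 percent for genes with several transcripts. A unique solution was found for 9 of the 10 V0 genes and for 97.5 percent of 2364 genes with 1 transcript. Over 2304 such genes the CD137 libraries differed by a mean chi-square of 1.73 (counting alone gives about 1), against 29.1 between the control and CD137 replicate 2, and were kept as separate samples. Promoter sequences are RefSeq's; near-identical copies were searched with BLAST 2.17.0 in GENCODE M21 transcripts.

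The V0 genes, the related lists, the threshold of 1 FPKM and the use of the expressed-gene fit were chosen with earlier results of these data known. Named genes were all 10 V0 genes and Tnfrsf9; in each related list the genes past the threshold with an absolute log2 fold change of at least 0.3 (at most 8) and the one with the highest control level; and the 3 genes most like the V0 gene with the largest change, passing over predicted genes. Alternatives changed the pseudocount, the filter, the centring and the trend, and left out each CD137 library. Both statistical steps were tested on simulated data. In the limma simulation few genes changed, and the control had the same noise as the CD137 libraries. It therefore does not give the error rate of the calls made here.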

Additional observations from a re-analysis of the deposited data

How the results depend on the processing

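The filter on low genes decides every call. With no filter (16003 genes, 0.0802 the smallest adjusted p) the count of V0 genes past the threshold went from 7 to 0, that of all expressed genes from 4563 to 0, and that of V1 and accessory genes from 11 to 0; the cause was not tested. Under the other alternatives (pseudocount 0.1, at least 5 FPKM, centring on the median ratio, no variance trend and, added after seeing the data, at least 1 FPKM in all 3 libraries) 5 to 7 V0 genes passed, all of them higher, with 7 at each setting but the centring (6) and no trend (5). Of all 10720 genes in the fit, 4545 passed with pseudocount 0.1, 4802 with centring and 3801 with no trend, against 4563 in the main fit. At 5 FPKM 4406 of 8843 genes passed, and at 1 FPKM in all 3 libraries 4570 of 10264. The log2 fold change of Atp6v0a2, which did not pass, turned from 0.02 to -0.0082 with centring (limma adjusted p = 0.928) and to -0.02 without CD137 replicate 3. Leaving out CD137 replicate 2 or 3 leaves 1 library against 1 and a value without a test, which with 2 CD137 libraries is the other library's own ratio. No paired analysis was possible because the groups share only the replicate number 2. The single control library gives no replicate error, and Atp6v0d2 rests on 183 control reads.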
